A study of Rattus norvegicus with 18 samples.

Results

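The splicing factors and heterogeneous nuclear ribonucleoproteins (hnRNPs) described here are the genes whose symbol begins with Srsf, Snrp, Sf3a, Sf3b or Hnrnp, 53 of the 32883 genes in the deposited table. They were measured in cortical collecting ducts, where the kidney sets the final salt, acid and water content of urine. The ducts were microdissected from male Sprague-Dawley rats 3 h after they received LPS (lipopolysaccharide, from the wall of Gram-negative bacteria) or Vehicle (normal saline) into the peritoneum. Each group held 3 numbered samples of 3 libraries, 18 libraries in all, and the design text calls the groups paired. Whether each numbered sample was a separate animal is not stated, so p-values measure only the spread between these samples. PolyA RNA was copied into cDNA with a kit for very small inputs, PCR-amplified and made into libraries with a transposase. Values are TPM, a transcript abundance per length, scaled to the same total in each library.

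Splicing removes introns from pre-mRNA in the spliceosome, a complex that assembles anew on each intron. Small nuclear ribonucleoproteins (snRNPs) carry a ring of Sm proteins around their RNA; U1 snRNP reads the start of the intron, and U2 snRNP, with its SF3A and SF3B subunits, reads the branch point near the end. SR proteins (the Srsf genes) bind exons through RNA recognition motifs and recruit the machinery through arginine-serine tails, whereas hnRNPs coat nascent transcripts and often oppose the use of a splice site. Most of these proteins are made in nearly every cell type, tubule cells among them.

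The 53 genes fall into 12 SR proteins, 9 Sm core proteins, 4 proteins specific to U1 or U2 snRNP, 9 SF3A and SF3B subunits and 19 hnRNPs. A gene was tested where its mean over all libraries was at least 1 TPM, which 50 of the 53 reached. Srsf8 was listed at 0 TPM in every library. Srsf12 had 1.09, 1.11 and 1.56 TPM in the LPS samples, against 0.590, 0.587 and 0.367 TPM in the Vehicle samples, and Hnrnpul2 had 0.413, 0.693 and 0.510 TPM in LPS, against 1.00, 1.18 and 2.07 TPM in Vehicle. Neither of these was tested.

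The promoter sequences of 5 of them, Hnrnpu, Hnrnpul1, Sf3a1, Snrpn and Srsf5, are shown because these were the genes called lower after LPS. The windows are RefSeq sequences of the GRCr8 assembly, from 250 bases before to 50 bases after the annotated start of transcription, 5′ to 3′ on the gene's own strand. Capitals mark the GC box GGGCGG and the ETS core CGGAAG on either strand. Hnrnpu lies at chr13:92618531-92618830 (minus strand), Hnrnpul1 at chr1:90390321-90390620 (minus), Sf3a1 at chr14:83254721-83255020 (plus), Snrpn at chr1:120338870-120339169 (minus) and Srsf5 at chr6:106336506-106336805 (plus).
Hnrnpu: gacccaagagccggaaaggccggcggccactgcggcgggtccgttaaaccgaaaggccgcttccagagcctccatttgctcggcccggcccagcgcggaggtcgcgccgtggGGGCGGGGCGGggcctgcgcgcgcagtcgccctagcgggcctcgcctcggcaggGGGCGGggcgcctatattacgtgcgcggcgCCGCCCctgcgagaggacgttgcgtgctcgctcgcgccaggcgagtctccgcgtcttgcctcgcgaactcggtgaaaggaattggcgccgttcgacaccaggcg
Hnrnpul1: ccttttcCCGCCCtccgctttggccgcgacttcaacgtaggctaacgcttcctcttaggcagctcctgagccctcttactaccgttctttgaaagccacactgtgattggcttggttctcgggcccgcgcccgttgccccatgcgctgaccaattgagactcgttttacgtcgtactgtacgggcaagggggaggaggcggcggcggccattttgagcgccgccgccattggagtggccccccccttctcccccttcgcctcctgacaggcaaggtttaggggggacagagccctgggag
Sf3a1: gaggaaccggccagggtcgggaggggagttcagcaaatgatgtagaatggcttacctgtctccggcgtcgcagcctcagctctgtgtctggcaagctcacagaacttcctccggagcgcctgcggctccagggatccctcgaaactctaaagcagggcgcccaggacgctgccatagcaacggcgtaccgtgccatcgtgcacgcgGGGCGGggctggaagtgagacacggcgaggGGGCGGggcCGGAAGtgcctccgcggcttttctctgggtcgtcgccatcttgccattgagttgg
Snrpn: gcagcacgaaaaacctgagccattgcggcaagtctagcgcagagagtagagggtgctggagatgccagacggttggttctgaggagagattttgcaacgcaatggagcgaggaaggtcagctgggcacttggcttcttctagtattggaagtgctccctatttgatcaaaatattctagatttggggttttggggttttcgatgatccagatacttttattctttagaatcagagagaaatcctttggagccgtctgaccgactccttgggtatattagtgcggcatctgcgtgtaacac
Srsf5: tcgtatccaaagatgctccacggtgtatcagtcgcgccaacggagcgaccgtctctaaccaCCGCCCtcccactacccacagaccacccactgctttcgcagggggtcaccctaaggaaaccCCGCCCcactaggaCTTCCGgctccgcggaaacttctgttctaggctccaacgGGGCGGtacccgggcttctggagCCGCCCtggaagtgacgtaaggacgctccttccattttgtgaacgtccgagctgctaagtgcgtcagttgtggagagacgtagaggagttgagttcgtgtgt

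The window of Hnrnpu had the most G and C of the 5, 73.0%, and held 47 CpG dinucleotides and 4 GC boxes, a pair of them overlapping. That of Snrpn had 47.7% G and C and 11 CpG dinucleotides, with neither motif. Of the 53 genes, 50 matched a RefSeq entry by symbol, with 54 windows because some have more than 1 start; Hnrnpll, Sf3b2 and Snrpd2l did not match. The median window of these genes had 60.2% G and C and 24.5 CpG dinucleotides, against 51.7% and 7 CpG dinucleotides over all 33469 windows of the table. The GC box was found in 59.3% of their windows, against 33.1% of all windows, and the ETS core in 51.9%, against 16.6%. CCAAT was found in 57.4% and in 37.5%, and TGACG, part of the cAMP response element, in 44.4% and in 21.2%. TATAAA was found at about the same share in both, 14.8% and 14.2%. Among motifs tied to inflammatory signalling, the AP-1 sequence TGANTCA was found in 5.56% of their windows and 7.33% of all, the kappaB motif in 11.1% and 7.51%, and the core of an interferon-stimulated response element in 0 of 54, against 3.92% of all. All motifs were searched on both strands, and a match or its lack is a description of these letters and not of binding.

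A library had 11399 to 12704 genes at a level of 1 TPM or above, and its read depth is unknown because TPM keeps none. Collecting duct markers fitted the tissue label: Aqp2, the water channel of principal cells, averaged 4012 ± 1098 TPM in LPS and 5961 ± 551 TPM in Vehicle (SD, n = 3 each). Proximal tubule markers summed to between 18.3 and 56.6 TPM in LPS samples and between 20.8 and 62.5 TPM in Vehicle samples. The 12 listed principal cell markers summed to 9600 to 13246 TPM in LPS, against 16956 to 18559 TPM in Vehicle, and the 12 intercalated cell markers to 9519 to 12000 TPM in LPS, against 12736 to 12821 TPM in Vehicle. The 11 macrophage markers summed to 222 to 469 TPM in LPS, against 130 to 269 TPM in Vehicle, and the 6 neutrophil markers to 2.11 to 78.6 TPM in LPS, against 0.0933 to 0.390 TPM in Vehicle. None of these marker genes was at 0 in every sample. Endothelial markers summed to 22.1 to 60.8 TPM in LPS and 19.0 to 88.0 TPM in Vehicle, and red cell markers to 162 to 2410 TPM in LPS and 336 to 1178 TPM in Vehicle. Slc4a1 was on both the red cell and the intercalated cell list, so the red cell sum is not of blood alone. Markers of the neighbouring connecting and distal tubule summed to 60.7 to 336 TPM in LPS and 152 to 5355 TPM in Vehicle, with Pvalb at 0 throughout. The part of these differences in the results below was not tested, and in whole ducts fewer cells of a type and less RNA per cell cannot be told apart.

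The tested splicing genes spanned a wide range of levels, similar in both groups. Together they made up 0.469% ± 0.0289 of all TPM in LPS samples and 0.542% ± 0.0497 in Vehicle samples (SD, n = 3 each), and these groups overlapped. Of the 50 tested, 17 averaged at least 100 TPM over both groups, 30 lay between 10 and 100 TPM and 3 were under 10 TPM. Hnrnpk (ENSRNOG00000019113), which binds C-rich RNA, was the highest, with a mean of 615 TPM. Hnrnpf followed at 350 TPM, Snrpb at 264 TPM, Srsf3 at 255 TPM and Hnrnpa2b1 at 241 TPM. Of the 10 highest in LPS, 9 were also among the 10 highest in Vehicle, and Spearman's rho of the 50 mean levels in LPS and Vehicle was 0.970. This rho is over genes, which are not replicates, and levels that range this widely leave room for changes of rank. Hnrnpa2b1, for example, was above Hnrnpf and Snrpb in Vehicle and below both in LPS.

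After LPS, 5 of the 50 tested genes fell and none rose (limma with the sample number as a block, adjusted p under 0.05 over all 12393 tested genes). In the same fit 22.2% of all tested genes were called lower and 7.17% higher, so the share of splicing genes called was under the background in both directions. Without the block 9 were called lower, the 5 among them, where 3624 of the 12393 tested genes were called lower. With the block and at an unadjusted p under 0.05, 11 of the 50 were lower and 1, Hnrnpf, was higher. Of all 12393 tested genes, 4679 were lower and 1176 higher at this cut. All 3 LPS samples lay below all 3 Vehicle samples in 20 of the 50, where this held for 47.1% of all tested genes, and above them in 1 of 50, where it held for 9.82% of all. The median change of the 50 was -0.22 on the log2 scale with TPM as deposited and 0.18 with median-ratio scaling. Over all tested genes it was -0.38 with TPM as deposited, and 36 of the 50 lay above that median. By family the median was -0.07 for the Sm core, -0.23 for the SR proteins, -0.24 for the hnRNPs, -0.28 for the SF3 subunits and -0.29 for the U1 and U2 proteins, where median-ratio scaling gave 0.33, 0.17, 0.17, 0.10 and 0.10 in the same order.

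**Figure D1:**
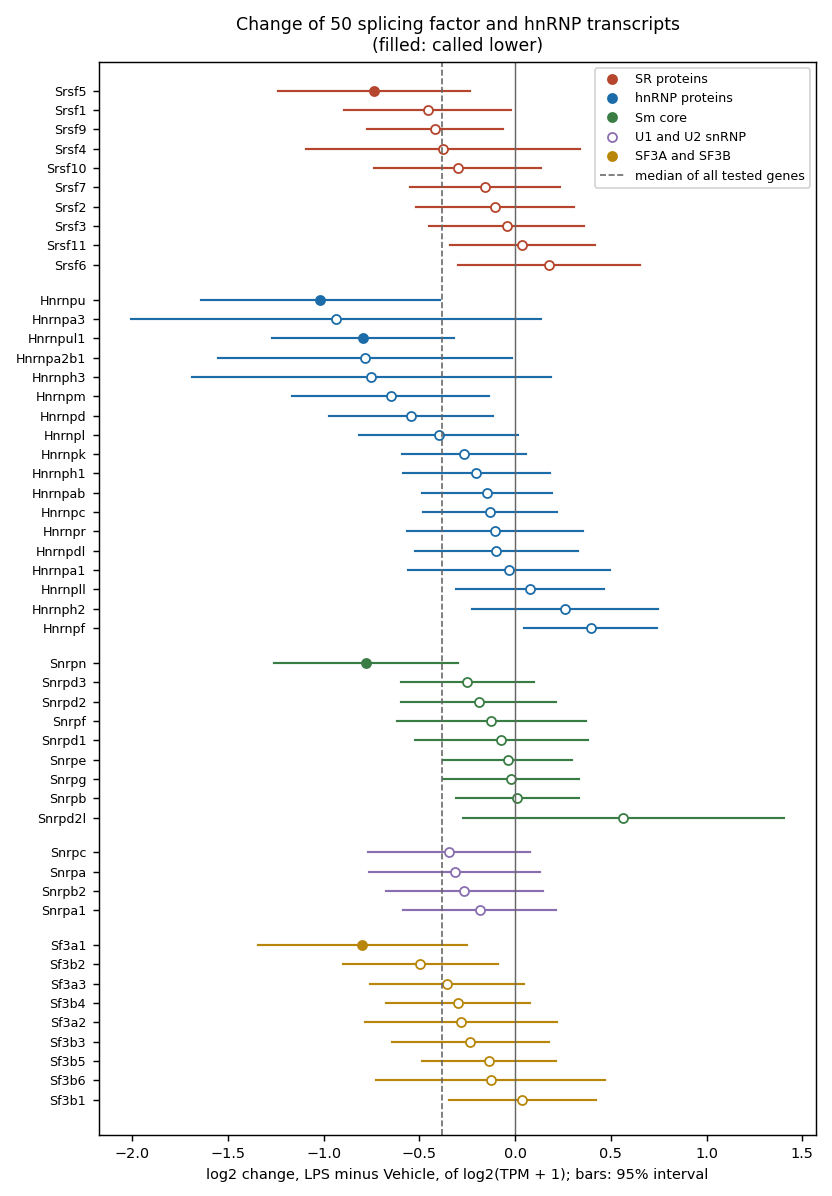
Change of each of the 50 tested genes, as LPS minus Vehicle of log2(TPM + 1) on the x axis, with its 95% interval (bars) and the families in colour. Filled points are the 5 genes called lower, the dashed line is the median of all tested genes at -0.38, and most points lie between it and 0; under a median-ratio scaling of the libraries 37 of the 50 changes are above 0.

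The sign of a typical change depended on how libraries were scaled. TPM forces each library to the same total. With libraries scaled by the median ratio over genes, the median of all tested genes moved by over 0.1 to -0.02, and that of the 50 splicing genes became 0.18, with 37 of the 50 above 0 and 13 below. With quantile normalization, which gives all libraries 1 distribution, the medians were -0.12 for all genes and -0.07 for the 50, with 19 above 0 and 31 below. None of the 50 was called in either direction with either scaling. The background of all genes was 6.62% called higher and 3.71% lower with the median ratio, and 6.53% higher and 4.67% lower with quantile normalization. At an unadjusted p under 0.05, 7 of the 50 were higher and 1 lower with the median ratio, and 0 higher and 8 lower with quantile normalization. Counts over all genes at this cut were not taken with these scalings. Relative to the median of all tested genes, 30 of the 50 were above it and 12 were below it in all 3 scalings.

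**Figure D2:**
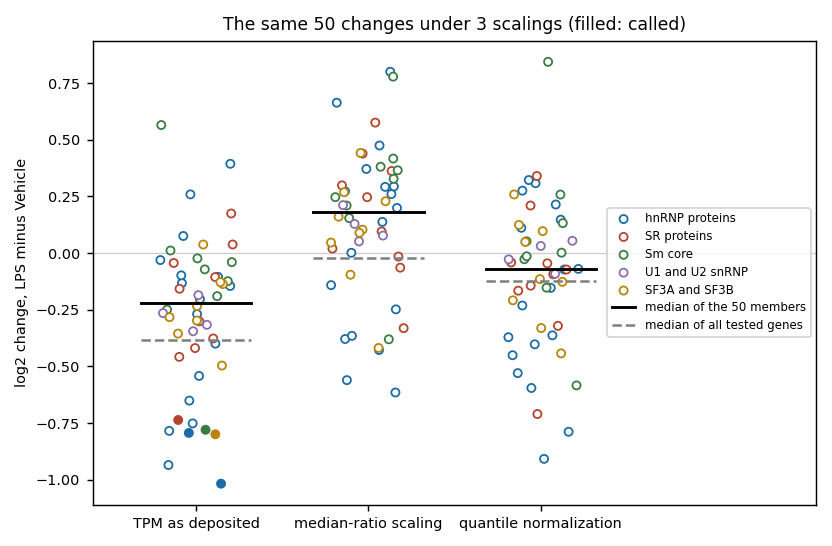
The 50 changes (y axis, log2, LPS minus Vehicle) with TPM as deposited, median-ratio scaling or quantile normalization (x axis). Filled points are called, the black lines are the medians of the 50 (-0.22, 0.18 and -0.07) and the dashed lines those of all tested genes (-0.38, -0.02 and -0.12); no gene is called with either of the last 2.

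Intervals show what the samples can resolve with TPM as deposited. For 39 of the 50 the 95% interval of the change lay within 2-fold in either direction, and for 16 of these within 1.5-fold. For the other 11 it reached beyond 2-fold. These intervals do not cover the choice of scaling. Hnrnpc, for example, had a change of -0.13 (95% interval -0.48 to 0.22), but 0.27 under median-ratio scaling. The 5 genes called lower are each described with their family, and none kept its call with either of the other scalings. Without sample number 1 Hnrnpul1, Sf3a1 and Snrpn kept the call, and without number 2 Hnrnpu and Srsf5 kept it. Without number 3 all 5 lost it (limma adjusted p from 0.284 to 0.32), and limma called no gene of the table.

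Among the SR proteins, Srsf5 fell and the other 9 tested did not pass the test. Srsf5 (ENSRNOG00000005513), an SR protein that binds exonic enhancers, had 104, 168 and 130 TPM in the LPS samples, against 237, 192 and 238 TPM in the Vehicle samples. The highest LPS sample stayed below the lowest Vehicle sample. The change was -0.74 ± 0.21 on the log2 scale (SE, n = 3 pairs, limma adjusted p = 0.0416), -0.33 under median-ratio scaling (adjusted p = 0.391) and -0.71 under quantile normalization (adjusted p = 0.0969). Relative to the median gene it was -0.35, -0.31 and -0.59 in these 3. The call was lost on leaving out Vehicle 1 library 1 (adjusted p = 0.0604) or library 2 (0.0514), Vehicle 2 library 2 (0.0752), Vehicle 3 library 1 (0.0776) or library 2 (0.0569), LPS 1 library 2 (0.0536), LPS 2 library 3 (0.0663), and LPS 3 library 2 (0.0552) or library 3 (0.0548). The direction stayed the same in each.

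The make-up of the SR family sets Srsf5 against its relatives within each sample, from TPM averaged over the 3 libraries. Scaling a whole sample leaves such a share unchanged, whereas scaling single libraries can move it. Srsf5 made up 13.6% ± 1.76 of all SR protein TPM in LPS, against 19.2% ± 0.586 in Vehicle (SD, n = 3 each). The LPS samples had 12.0%, 15.5% and 13.4%, against 19.8%, 18.7% and 19.2% in Vehicle, with no overlap. The shares of Srsf6 and Srsf11 lay above Vehicle in all LPS samples, with 6.71% ± 0.949 in LPS against 5.01% ± 0.267 in Vehicle for Srsf6 and 6.76% ± 0.675 in LPS against 5.59% ± 0.608 in Vehicle for Srsf11. The share of Srsf1 lay below, with 2.54% ± 0.220 in LPS and 2.98% ± 0.180 in Vehicle. An exact permutation test of 3 against 3 cannot go below p = 0.1, so these shares are given as values. A ratio chosen after its values were seen, Srsf5 over Srsf6, was 2.04 ± 0.222 in LPS and 3.85 ± 0.275 in Vehicle.

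The most abundant SR protein, Srsf3 (a small factor that also serves mRNA export), had 215, 262 and 272 TPM in LPS, against 291, 216 and 271 TPM in Vehicle. These overlapped fully, and the change was -0.04 ± 0.17, or 0.36 under median-ratio scaling. Srsf2, a nuclear SR protein that recognises exonic enhancers, had 114, 173 and 149 TPM in LPS, against 150, 145 and 172 TPM in Vehicle, also with overlap. Srsf1, the founding member of the family, had 23.8, 27.9 and 22.5 TPM in LPS, against 34.4, 32.7 and 35.5 TPM in Vehicle. Its groups did not overlap, but the change of -0.46 ± 0.18 did not pass, and neither did that of Srsf10, with 36.4, 34.6 and 28.7 TPM in LPS against 41.5, 38.0 and 43.95 TPM in Vehicle. Srsf10 acts as a splicing repressor when dephosphorylated. The remaining 5 tested SR proteins, Srsf4, Srsf6, Srsf7, Srsf9 and Srsf11, had differences of -0.42 (Srsf9, adjusted p = 0.0713) to 0.17 (Srsf6, adjusted p = 0.503), or -0.02 to 0.58 for the same pair under median-ratio scaling.

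**Figure D3:**
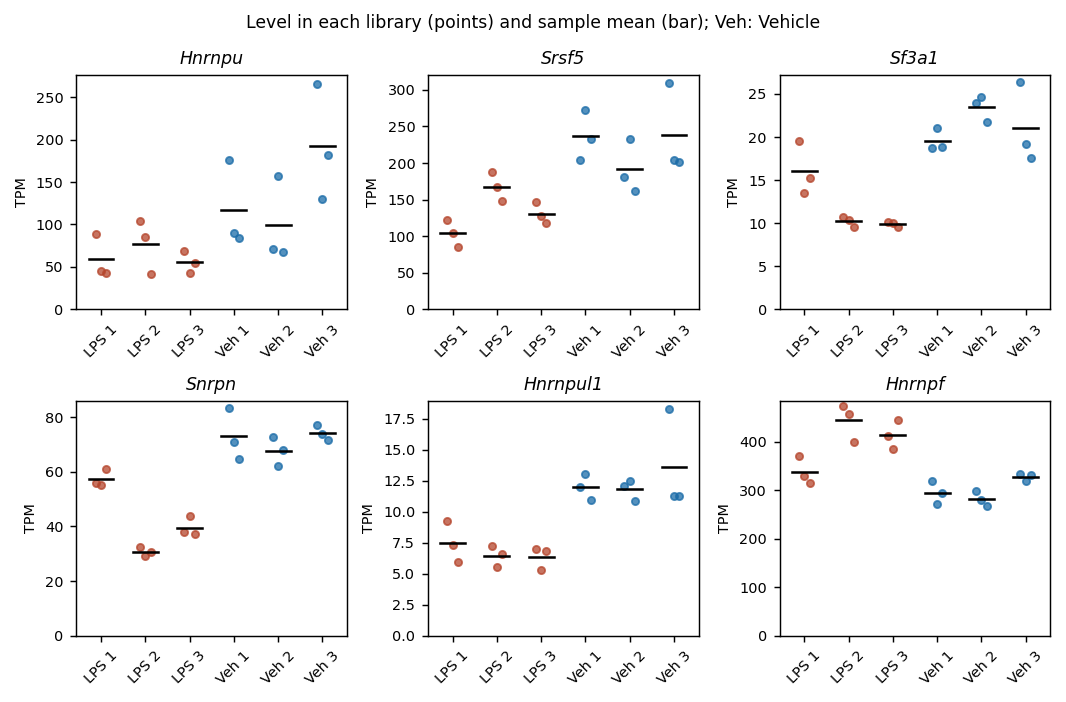
TPM (y axis) of the 5 genes called lower and of Hnrnpf in each library (points) and as the mean of each sample (bars), LPS samples on the left and Vehicle samples on the right of each panel. The sample means do not overlap between groups in any panel, Hnrnpf is above Vehicle and the other 5 below, and the libraries of Hnrnpu spread widely within a sample.

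Among the Sm core proteins, Snrpn fell and the other 8 did not pass the test. Snrpn (ENSRNOG00000059764) encodes SmN, a close relative of SmB from an imprinted locus, best known from brain. It had 57.2, 30.7 and 39.6 TPM in LPS samples, against 72.9, 67.6 and 74.0 TPM in Vehicle samples, with no overlap. The change was -0.78 ± 0.20 (SE, limma adjusted p = 0.0329), -0.38 under median-ratio scaling (adjusted p = 0.149) and -0.58 under quantile normalization (adjusted p = 0.0772). It lost its call on leaving out Vehicle 1 library 1 (adjusted p = 0.057) or Vehicle 3 library 1 (0.0515).

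Snrpb (ENSRNOG00000006961), which encodes SmB, had 286, 250 and 259 TPM in LPS and 265, 265 and 258 TPM in Vehicle, a change of 0.01 ± 0.14 with TPM as deposited, 0.42 under median-ratio scaling and -0.03 under quantile normalization. SmN and SmB occupy the same place in the Sm ring, so their transcripts can be set against each other. Snrpn made up 16.7%, 11.0% and 13.3% of the sum of the pair in LPS, against 21.6%, 20.3% and 22.3% in Vehicle. The means were 13.6% ± 2.87 in LPS and 21.4% ± 0.988 in Vehicle (SD, n = 3 each), and the groups did not overlap; this pair was chosen after its values were seen.

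The other Sm transcripts overlapped between groups. Snrpe had 194, 178 and 164 TPM in LPS, against 188, 176 and 182 TPM in Vehicle, and Snrpg had 162, 151 and 126 TPM in LPS, against 149, 155 and 144 TPM in Vehicle. Snrpf, at 12.0, 9.58 and 9.64 TPM in LPS and 11.1, 13.2 and 9.97 TPM in Vehicle, also overlapped between groups. A second row annotated as snRNP G held 215 ± 11.6 TPM in LPS and 197 ± 11.6 TPM in Vehicle, and the sum of it and Snrpg was 361 ± 30.2 TPM in LPS and 346 ± 15.4 TPM in Vehicle. Reads of such near-identical copies were divided by estimate, so each of these rows is uncertain by itself. Snrpd1, Snrpd2 and Snrpd3, which form the ring with the others, had differences of -0.07, -0.19 and -0.25, all above 0 under median-ratio scaling (0.33, 0.21 and 0.15). Snrpd2l, the lowest of the tested genes, had 2.75, 0.893 and 4.93 TPM in LPS and 1.45, 1.77 and 1.25 TPM in Vehicle, and its change of 0.56 ± 0.35 did not pass.

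None of the 4 genes grouped here as specific to U1 or U2 snRNP was called, with the SF3 subunits of U2 counted as a group of their own. Snrpa1, a protein of the U2 particle, had 36.3, 36.0 and 40.8 TPM in LPS, against 42.1, 43.9 and 43.1 TPM in Vehicle, and Snrpa, a protein of the U1 particle, had 30.6, 25.4 and 25.8 TPM in LPS, against 32.5, 38.8 and 31.2 TPM in Vehicle. In both all LPS samples were below all Vehicle samples, yet the changes of -0.19 ± 0.17 and -0.32 ± 0.19 did not pass, and both were above 0 under median-ratio scaling (0.21 and 0.08). Snrpc, which steadies U1 on the splice site, averaged 34.5 ± 5.86 TPM in LPS and 43.8 ± 2.78 TPM in Vehicle, and Snrpb2, a U2 protein, 28.1 ± 7.56 TPM in LPS and 33.7 ± 7.29 TPM in Vehicle. These overlapped.

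Among the SF3 subunits, Sf3a1 fell and the other 8 did not pass. Sf3a1 (ENSRNOG00000005218), the large subunit of SF3A, had 16.1, 10.2 and 9.89 TPM in the LPS samples, against 19.5, 23.4 and 21.1 TPM in the Vehicle samples, with no overlap. The change was -0.80 ± 0.23 (SE, limma adjusted p = 0.042), -0.42 under median-ratio scaling (adjusted p = 0.151) and -0.44 under quantile normalization (adjusted p = 0.151). Its call sat at the threshold. Leaving out 1 library ended it for 11 of the 18, with adjusted p of 0.0557 and 0.0563 without Vehicle 1 library 1 and 2, 0.0555 without Vehicle 2 library 2, 0.0641 and 0.06 without Vehicle 3 library 1 and 2, 0.067 and 0.0541 without LPS 1 library 2 and 3, 0.05 and 0.0575 without LPS 2 library 1 and 3, and 0.0514 and 0.0518 without LPS 3 library 1 and 2.

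The SF3A complex holds 1 copy each of Sf3a1, Sf3a2 and Sf3a3. Sf3a3 was the most abundant of the 3 transcripts, with 70.3, 63.6 and 59.5 TPM in LPS, against 87.4, 71.4 and 90.4 TPM in Vehicle, and Sf3a2 was low, with 11.2, 10.1 and 8.55 TPM in LPS, against 10.6, 14.8 and 11.9 TPM in Vehicle. Sf3a1 made up 13.8% ± 2.35 of their sum in LPS and 18.4% ± 2.63 in Vehicle (SD, n = 3 each). The groups were barely apart, since the highest LPS sample had 16.5% and the lowest Vehicle sample 16.6%. In SF3B, Sf3b1, the subunit that clamps the branch point, had 101, 126 and 133 TPM in LPS, against 114, 104 and 130 TPM in Vehicle, with a change of 0.04 ± 0.16. Sf3b5, a small subunit, had 188, 187 and 173 TPM in LPS, against 219, 182 and 205 TPM in Vehicle. Sf3b6, the subunit that touches the branch point adenosine, was the lowest, with 12.3, 6.35 and 8.91 TPM in LPS, against 10.1, 9.31 and 8.31 TPM in Vehicle. All 3 overlapped between groups. Sf3b2, Sf3b3 and Sf3b4 did not overlap, with differences of -0.50 (adjusted p = 0.065), -0.23 (0.309) and -0.30 (0.176) that did not pass, the last 2 of them above 0 under median-ratio scaling (0.16 and 0.10).

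Among the hnRNPs, Hnrnpu and Hnrnpul1 fell, and Hnrnpf was the one hnRNP whose LPS samples all lay above the Vehicle samples. Hnrnpul1 (ENSRNOG00000020683), a relative of Hnrnpu with a part in the repair of DNA breaks, had 7.51, 6.45 and 6.37 TPM in LPS, against 12.0, 11.8 and 13.6 TPM in Vehicle, with no overlap and little spread between samples. Libraries of a sample spread more (SD 0.225 on the log2 scale) than the samples did (0.0985), with 18.3, 11.3 and 11.3 TPM in those of Vehicle 3. The change was -0.79 ± 0.20 (SE, limma adjusted p = 0.0307). It was the only one of the 5 that kept its call without each single library in turn (adjusted p from 0.0249 to 0.0474). Under median-ratio scaling it was -0.43 with adjusted p = 0.092, and under quantile normalization -0.40 with adjusted p = 0.103.

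Hnrnpu (ENSRNOG00000033790), also called scaffold attachment factor A, binds chromatin-associated RNA. It had 59.2, 77.1 and 55.4 TPM in LPS samples, against 117, 98.9 and 192 TPM in Vehicle samples, with no overlap. The change was -1.02 ± 0.26 (SE, limma adjusted p = 0.0331), with -0.61 under median-ratio scaling (adjusted p = 0.164) and -0.91 under quantile normalization (adjusted p = 0.09). Hnrnpu made up 2.91% ± 0.246 of all hnRNP TPM in LPS, against 5.21% ± 1.14 in Vehicle (SD, n = 3 each). The call was lost without Vehicle 1 library 1 (adjusted p = 0.068), Vehicle 2 library 2 (0.0858), Vehicle 3 library 1 (0.054) or library 2 (0.0564), LPS 1 library 2 (0.0503) or LPS 2 library 3 (0.0877), and also in a fit over all 18 libraries with an estimated correlation (adjusted p = 0.0634).

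Hnrnpf (ENSRNOG00000014562), which binds runs of G in RNA, had 338, 444 and 414 TPM in LPS, against 295, 281 and 328 TPM in Vehicle, with no overlap. The change of 0.39 ± 0.15 (95% interval 0.05 to 0.74) did not pass, with limma adjusted p = 0.079, nor under median-ratio scaling (0.80, adjusted p = 0.0549) or quantile normalization (0.31, adjusted p = 0.159). The fit over all 18 libraries called it higher (limma adjusted p = 0.00364), along with 1189 of all 12393 tested genes. That fit used 1 estimated correlation for all genes. Hnrnpf varied more between samples (SD 0.164 on the log2 scale) than between libraries of a sample (0.102), so this p may be too small. As a share of hnRNP TPM it stood apart between groups, with 16.7%, 18.1% and 19.8% in LPS, against 11.8%, 12.7% and 11.1% in Vehicle, or 18.2% ± 1.55 in LPS and 11.9% ± 0.801 in Vehicle. Of the sum of Hnrnpf and its close relatives Hnrnph1 and Hnrnph2 it made up 63.3% ± 1.23 in LPS and 58.3% ± 1.399 in Vehicle. Against Hnrnpk, the ratio of Hnrnpf was 0.715 ± 0.0926 in LPS and 0.449 ± 0.0252 in Vehicle; the ratios and the sum of relatives were chosen after their values were seen.

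**Figure D4:**
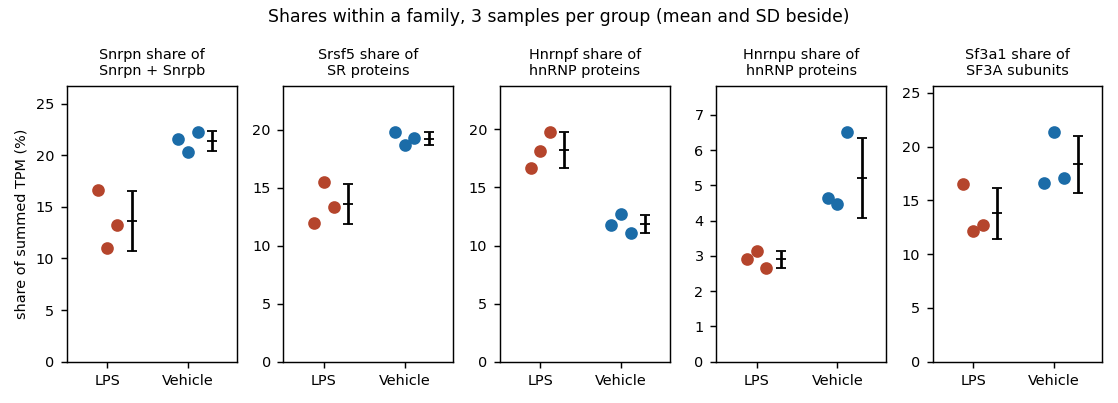
Share of summed TPM (y axis, %) of Snrpn within the Snrpn and Snrpb pair, of Srsf5 within the SR proteins, of Hnrnpf and Hnrnpu within the hnRNPs and of Sf3a1 within SF3A, in the 3 LPS and 3 Vehicle samples (points), with the mean and SD beside them. The share of Hnrnpf is higher in every LPS sample than in any Vehicle sample and the other 4 are lower, with Sf3a1 apart by the least.

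Other hnRNPs did not pass. Hnrnpk had 554, 592 and 526 TPM in LPS, against 701, 599 and 718 TPM in Vehicle, a change of -0.27 ± 0.14 that turned to 0.14 under median-ratio scaling. A second row annotated as hnRNP K-like held 74.9 ± 3.53 TPM in LPS and 84.6 ± 6.77 TPM in Vehicle, and the sum of both rows was 632 ± 36.3 TPM in LPS and 757 ± 71.0 TPM in Vehicle, without overlap. Hnrnpa2b1, which sorts RNA and binds methylated adenosines, had 128, 251 and 139 TPM in LPS, against 281, 213 and 434 TPM in Vehicle. These overlapped, and the difference of -0.78 ± 0.32, within the range of the 5 called genes but with a larger SE, did not pass (adjusted p = 0.101). Hnrnpa3, an hnRNP of the same subfamily, had 4.76, 15.8 and 7.99 TPM in LPS, against 16.6, 10.4 and 39.9 TPM in Vehicle, also with overlap. Hnrnpm, with a difference of -0.65 ± 0.22, and Hnrnpd, which binds AU-rich RNA, with -0.54 ± 0.18, came nearest to the threshold (adjusted p = 0.0599 and 0.0601). Hnrnpd averaged 48.4 ± 5.08 TPM in LPS and 72.4 ± 14.1 TPM in Vehicle, without overlap. Hnrnph2 averaged 158 ± 36.6 TPM in LPS and 130 ± 22.1 TPM in Vehicle, with overlap, but its share of hnRNP TPM lay above Vehicle in all LPS samples, with 7.17% ± 1.07 in LPS and 5.08% ± 0.126 in Vehicle. The other 9, from Hnrnph3 at -0.75 to Hnrnpll at 0.08 (-0.36 and 0.47 under median-ratio scaling), did not pass.

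The spread between libraries of the same sample differed from gene to gene. For most of these genes the libraries of a sample lay close together, with a median within-sample SD of 0.16 on the log2 scale, against 0.21 over all tested genes. For 7 of the 50 the within-sample SD was over 0.5, where 8.78% of all tested genes had as much. They were Hnrnpu, Hnrnpa2b1, Hnrnpa3, Hnrnph3, Srsf4, Sf3b6 and Snrpd2l. Hnrnpu had 89.0, 45.2 and 43.3 TPM in the 3 libraries of LPS 1, 105, 85.4 and 41.3 TPM in those of LPS 2 and 68.3, 43.3 and 54.7 TPM in those of LPS 3. It had 176, 90.0 and 83.7 TPM in those of Vehicle 1, 71.6, 157 and 68.0 TPM in those of Vehicle 2 and 265, 130 and 182 TPM in those of Vehicle 3. On the log2(TPM + 1) scale the highest and lowest libraries of every sample but LPS 3 lay further apart than the group means did. They did so by the most in LPS 2 and Vehicle 2.

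The first 5 of these 7 went up and down together. After each sample's mean was removed, Hnrnpu, Hnrnpa2b1, Hnrnpa3, Hnrnph3 and Srsf4 correlated at r of 0.878 to 0.971 with each other over the 18 libraries, which share samples and are not independent. With Sf3b6 and Snrpd2l the same 5 had r between -0.180 and 0.328. In Vehicle 2, for example, Hnrnpa2b1 had 152, 344 and 142 TPM and Srsf4, an SR protein of larger size, had 26.2, 65.0 and 22.3 TPM in the same order of libraries as Hnrnpu. A further 8 members had r above 0.8 with the mean of the 5 (Srsf9, Hnrnph2, Hnrnpm, Sf3b3, Hnrnpa1, Hnrnpr, Hnrnpll and Hnrnpk), as did 856 of the 7394 genes at 10 TPM or more, or 11.6%. Snrpb went the other way (r = -0.786) by a small amount. What the 3 libraries of a sample are (repeat dissections or repeat preparations of 1 RNA) is not given in the sources used here. The ratio of Hnrnpu to Hnrnpa2b1, a pair that moved together between libraries and was chosen for that, was 0.389 ± 0.0777 in LPS and 0.441 ± 0.0250 in Vehicle, and the groups overlapped.

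**Figure D5:**
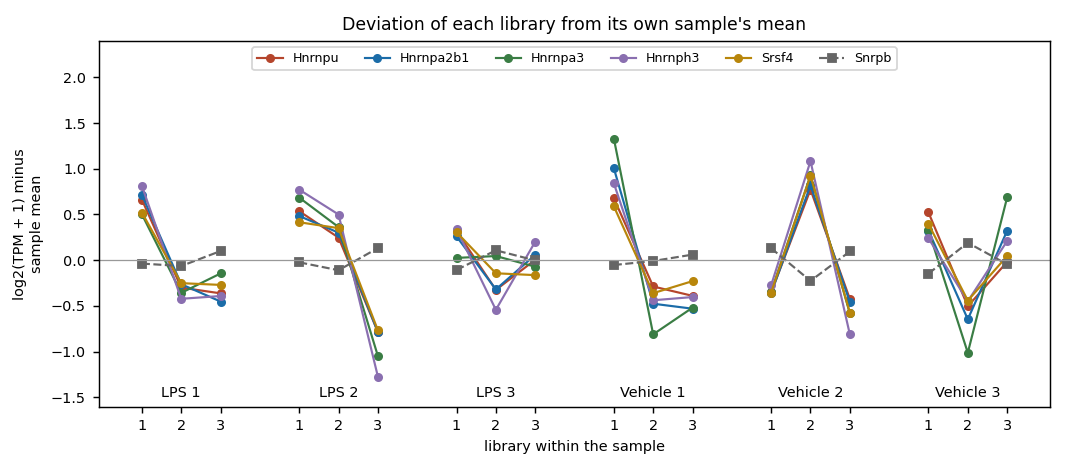
Deviation of each library from its own sample's mean (y axis, log2(TPM + 1)) for 5 genes that move together and for Snrpb, with the 3 libraries of each of the 6 samples along the x axis. The 5 lines rise and fall together within each sample, as in the middle library of Vehicle 2, whereas Snrpb stays near 0.

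Other genes of splicing were described by 8 lists, 179 genes in all, of which 175 had a row in the table; 169 rows were tested. Of these 1 was called higher, where 7.17% of all tested genes were, and 26 lower, where 22.2% were. The median change was -0.42, against -0.38 over all tested genes, and it was -0.04 with median-ratio scaling. By list, the calls lower were 0 of 7 tested SR protein kinases, 5 of 21 SR-related proteins and activators, 3 of 19 proteins associated with U1 or U2, 6 of 50 of the U4, U5, U6 and catalytic proteins, 1 of 9 of the minor spliceosome, 3 of 14 of the SMN complex and methylosome, 2 of 13 of the exon junction complex and 6 of 36 other RNA-binding regulators. Under median-ratio scaling 2 were called higher and 1 lower, with 6.62% and 3.71% of all genes called, and likewise under quantile normalization, with 6.53% and 4.67%.

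The 7 tested kinases that phosphorylate SR proteins did not pass, and 6 of them had a change below 0. Srpk2 had the largest change, -0.76 ± 0.24 (SE, limma adjusted p = 0.0545), or -0.37 under median-ratio scaling (adjusted p = 0.224). Srpk2 averaged 18.7 ± 8.89 TPM in LPS and 30.4 ± 1.54 TPM in Vehicle, with overlap. Prpf4b changed by -0.53 (adjusted p = 0.0768), and Dyrk1a, the 1 above 0, by 0.19 (adjusted p = 0.461). Clk1 averaged 159 ± 6.79 TPM in LPS and 199 ± 29.4 TPM in Vehicle, with a change of -0.31 that turned to 0.09 under median-ratio scaling, and Srpk1 averaged 30.3 ± 3.74 TPM in LPS and 30.8 ± 3.35 TPM in Vehicle. Gemin2 and Gemin4, parts of the SMN complex that loads Sm proteins onto snRNA, both fell. Gemin2 had 15.9, 8.82 and 8.14 TPM in LPS, against 26.7, 21.5 and 23.6 TPM in Vehicle, a change of -1.12 ± 0.22 (limma adjusted p = 0.0166) that kept its call under median-ratio scaling (-0.74, adjusted p = 0.0453) and quantile normalization (-0.77, adjusted p = 0.0406). Gemin4 averaged 8.05 ± 1.499 TPM in LPS and 16.3 ± 1.43 TPM in Vehicle (adjusted p = 0.0238) and lost its call under median-ratio scaling (0.0649) and quantile normalization (0.0659). Prmt5, the enzyme that methylates Sm proteins before loading, averaged 22.4 ± 5.16 TPM in LPS and 39.6 ± 5.14 TPM in Vehicle (adjusted p = 0.039), and it was not among the genes called with the other scalings. Gemin7 had 34.8, 31.2 and 32.02 TPM in LPS, against 24.5, 25.7 and 23.1 TPM in Vehicle, and was called higher under both other scalings (adjusted p = 0.0374 and 0.044) but not with TPM as deposited (0.41, adjusted p = 0.112).

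Rbm4, an RNA-binding regulator of alternative splicing, was the single gene of the lists called higher with all 3 scalings. It had 101, 186 and 170 TPM in LPS, against 77.4, 82.8 and 84.3 TPM in Vehicle, with no overlap. The change was 0.84 ± 0.20 (limma adjusted p = 0.0256), 1.25 under median-ratio scaling (adjusted p = 0.0471) and 0.94 under quantile normalization (adjusted p = 0.0492). Rbm4 and Gemin2 lost their calls without sample number 2 (adjusted p = 0.151 for Rbm4 and 0.129 for Gemin2) or 3 (0.285 for Rbm4 and 0.272 for Gemin2). Their calls were not examined with single libraries left out. A separate row, Rbm4b, was in the table but not on the lists, and how reads were divided between it and Rbm4 was not examined. Among the genes called lower with TPM as deposited were Ptbp1, the polypyrimidine tract binding protein (75.3 ± 7.05 TPM in LPS, 120 ± 14.9 TPM in Vehicle), Matr3, a nuclear matrix protein (46.4 ± 2.28 TPM in LPS, 79.5 ± 11.1 TPM in Vehicle), and Ewsr1 (38.4 ± 3.13 TPM in LPS, 74.2 ± 19.3 TPM in Vehicle). Ewsr1 followed the libraries of Hnrnpu and its companions with r = 0.957, and Matr3 with r = 0.602. Snrnp27, a protein of the U4/U6.U5 particle, averaged 103 ± 26.2 TPM in LPS and 187 ± 46.6 TPM in Vehicle (adjusted p = 0.0325).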

How the data were processed

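RNA-seq libraries from 3 LPS and 3 Vehicle samples, 3 libraries each, were used. The authors deposited TPM per gene and library. STAR 2.7.9a, RSEM 1.3.3 and the build Rnor_6.0 are named per the submitters' processing notes. The annotation release and any filter were not given in the sources used here. RSEM divides reads of near-identical transcripts by estimate, and TPM gives no depth, so there are no counting intervals. Column names beginning with N and L were read as normal saline and LPS.

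For each sample the mean of log2(TPM + 1) over its 3 libraries was taken. The test, limma 3.58.1 (R 4.3.3), covered the 12393 of 32883 genes whose mean reached 1 TPM. It had the sample number as a block, a variance trend in the empirical Bayes step and a two-sided p with Benjamini-Hochberg adjustment over all tested genes. Residual degrees of freedom were 2, and the prior added 4.97. A gene was called at an adjusted p under 0.05. The scale understates the change of low genes. Deviations from the group means correlated weakly between samples of the same number (r = 0.0622, -0.0175 and 0.0686 over genes), so the block rests on the design text alone. The code was tested on simulated data. Alternatives were no block, other summaries over libraries, a fit of all 18 libraries, other pseudocounts and filters, median-ratio scaling, quantile normalization, other variance models and leaving out samples or libraries.

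Genes named are those called, the 3 most and the 2 least abundant of each family, and the called genes of smallest p in the other lists; Hnrnpf, other single values and the ratios were chosen after their values were seen. The genes, families, lists and tests were all chosen with earlier results of these data known. Promoter windows came from RefSeq tables of GRCr8, read by symbol, and no GRCr8 coordinate was used with the table's build.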

Additional observations from a re-analysis of the deposited data

How the results depend on the processing

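The number of splicing factor and hnRNP genes called lower was 5, and it changed with the processing. It was 9 with no replicate block, 3 with log2 of the mean TPM over libraries, 2 without a variance trend and 15 with all 18 libraries and an estimated correlation in the block fit, which also called 1 higher and kept 4 of the 5, losing Hnrnpu. It was 0 with the median of the libraries, no filter on low values, median-ratio scaling, quantile normalization and, in a set chosen after the data were seen, without the least correlated library of each sample; limma's unadjusted p was under 0.05 for 9, 13, 1, 8 and 10 lower genes and 0, 2, 7, 0 and 1 higher genes in these. Of all 12393 tested genes, 3624 were called lower with no block, 2082 with log2 of the mean and 2375 without a trend. The 18-library fit called 5295 of them lower and 1189 higher. Over the whole table the median of libraries called 0 genes, and no filter called 18 higher and 2 lower. Without the least correlated libraries 314 genes were called higher and 300 lower. Counts over all genes at an unadjusted p were not taken for these settings. Leaving out each sample number or, also added after the data were seen, each single library gave 0 to 7 of these genes called lower. Over the whole table these fits called 0 to 3595 of the 12393 genes lower and 0 to 1004 higher. The 7 came without LPS 1 library 1, where 3157 genes of the table were called lower. None of the splicing genes was called without sample number 3, where limma called no gene of the table and none of these had an unadjusted p under 0.05. Other pseudocounts, a stricter filter and a robust trend gave 4 to 6. The 4 came with pseudocount 5, where 2333 of all genes were called lower, and the 6 with the robust trend, where 2991 were. The median change of these genes, -0.218, was 0.18 under the median-ratio scaling and -0.071 under quantile normalization. The 27 other splicing genes called became 54 without the block, 85 with 18 libraries, 16 without a trend and 3 with either scaling. They became 0 with the median of libraries, no filter or the least correlated libraries left out. Leaving out samples or libraries gave 0 to 45, in fits with the whole-table ranges given above.

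Signs are listed here only for the splicing factor and hnRNP genes called and for the most and least abundant of each family. Genes outside this set turned sign too, such as Hnrnpab, from -0.14 to 0.26 with median-ratio scaling. Over all tested splicing factor and hnRNP genes, 42 changes were below 0 with TPM as deposited. With median-ratio scaling 13 were, and with quantile normalization 31. Within the listed set some changes turned sign, none of them called with TPM as deposited in the sample-level block fit. Of those that turned, Hnrnpk, Sf3a3, Snrpc and Srsf10 were called lower in the 18-library fit. Log2 changes with median-ratio scaling were Hnrnpk 0.14, Sf3a2 0.0896, Sf3a3 0.0466, Sf3b5 0.27, Sf3b6 0.23, Snrpa 0.0774, Snrpa1 0.21, Snrpb2 0.13, Snrpc 0.0518, Snrpe 0.37, Snrpf 0.25, Snrpg 0.38, Srsf10 0.0954, Srsf2 0.30 and Srsf3 0.36. With quantile normalization they were Sf3a2 0.0969, Sf3b6 0.26, Snrpa1 0.0544, Snrpb -0.0269, Snrpb2 0.0315, Snrpf 0.26 and Snrpg 0.0522. With the median of libraries Snrpb -0.023 turned, and without the least correlated libraries Sf3b1 -0.00132, Snrpb -0.049 and Snrpe 0.00669. Leaving out samples or libraries gave Sf3b1 from -0.0734 to 0.15, Sf3b6 from -0.33 to 0.17, Snrpb from -0.0367 to 0.0577, Snrpe from -0.0914 to 0.0293, Snrpf from -0.23 to 0.0355, Snrpg from -0.10 to 0.048, Srsf2 from -0.29 to 0.0257 and Srsf3 from -0.20 to 0.14. The causes were not tested. Unknown depth and 3 samples a group limit all of these.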
